A study of Homo sapiens with 10 samples.

Results

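Of the 58174 gene identifiers counted in these libraries, 9 belong to a named set of cytokines of the interleukin-6 family, their receptors and their signalling genes, and all 9 were among the 13743 genes abundant enough to be tested. The set was listed by gene symbol, and its members were chosen with earlier results of these data known. It holds the ligands IL6, IL11, LIF and CLCF1, the receptor subunits IL6ST, LIFR and OSMR, the transcription factor STAT3 and the inhibitor SOCS3. RNA came from SNU-387, an established cell line from a pleomorphic hepatocellular carcinoma. The cells stably expressed either the tyrosine kinase YES in its wild-type form (WT, 5 libraries) or YES carrying the gatekeeper substitution T348I (5 libraries), and both groups were treated with 100 nM dasatinib, an inhibitor of SRC-family and ABL kinases. The comparison therefore asks which transcripts differ between the YES forms under the drug, and no untreated library was analysed here. The labels name 1 stable line per YES form and do not say whether the libraries of a group came from separate cultures, so the spread behind each p-value may be technical only. Sample titles come in a long style (3 libraries per genotype) and a short style (2 per genotype), a grouping called the title set here and included in the model as a possible batch.

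Cytokines of the interleukin-6 family signal through receptor complexes that contain gp130, the protein made from IL6ST. IL-6 and IL-11 first bind their own alpha receptors, encoded by IL6R and IL11RA, and then engage gp130. LIF and the CLCF1 product use gp130 together with the LIF receptor, and oncostatin M can use gp130 with the product of OSMR. The bound receptors activate JAK kinases, which phosphorylate STAT3, and STAT3 in the nucleus induces SOCS3, whose product inhibits the receptor-JAK complex. In liver, IL-6 acting through STAT3 is the classical inducer of the acute phase proteins of hepatocytes. Transcript counts show none of the phosphorylation steps.

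The libraries held 10168307 to 16939029 counts in genes. Pairs of T348I long-title libraries differed little more than counting error, with chi-square values over genes of 1.58 to 2.04 per degree of freedom, against 12.8 to 48.6 between pairs of WT long-title libraries. The short-title pair of T348I stood at 7.36 and that of WT at 26.1. Among the WT long-title libraries, library 1 stood apart most, at 34.6 and 48.6 from the others, against 12.8 between libraries 2 and 3. WT long-title library 2 had the most unmapped reads, 8.64% against 3.11% to 5.29% in all other libraries. It also had the most reads outside genes, 30.0% against 20.7% to 25.0%. The part of this in the results was not tested beyond leaving the library out. Of 10 hepatocyte markers 5, among them ALB, HNF4A and TTR, had at most 3 counts in every library of these liver cancer cells. SERPINA1, AFP and CPS1 were abundant enough to be tested and were not called. The summed level of the 10 was 13.2 to 25.6 CPM (counts scaled to equal library size) in WT and 11.6 to 25.6 CPM in T348I. SERPINA1 was the largest part, with means of 18.1 CPM (WT) and 18.2 CPM (T348I) in the long-title libraries. In the short-title libraries its means were 5.95 and 6.12 CPM. For leukocyte markers, CD3E was at 0 counts and the summed level of the 6 was 45.5 CPM in WT long-title library 1, nearly all of it CD14, 5.14 to 9.55 CPM in the other WT libraries and 3.10 to 6.15 CPM in T348I. For the 4 endothelial markers it was 14.2 CPM in WT long-title library 1, 5.47 to 6.80 CPM in the other WT libraries and 3.17 to 5.16 CPM in T348I. The only leukocyte marker tested, CD14, and the only endothelial one, PECAM1, were both called lower in T348I, beside 13.3% of all genes tested. Their log2 fold changes were −1.58 and −1.15. DESeq2 called 0 leukocyte markers and 1 endothelial marker lower. Without WT long-title library 1, edgeR called 1 marker of each list lower, beside 1865 of 14028 genes. All 8 mesenchymal markers were expressed, at 37738 CPM in sum in WT long-title library 1, 11942 to 18076 CPM in the other WT libraries and 8503 to 13438 CPM in T348I. FN1 was the largest part of these sums, at 26236 CPM in WT long-title library 1 and 4860 to 6217 CPM in T348I. The other WT long-title libraries held 9638 CPM of FN1 on average, and the WT short-title libraries 8749 to 9075 CPM. VIM and PDGFRB averaged 31.0 and 6.44 CPM in the WT long-title libraries, so the sums say little about such genes. Of the 8 genes 0 were higher and 3 lower in T348I, beside 13.7% and 13.3% of all genes tested. The counts were 0 and 2 with DESeq2, and 1 and 3 without WT long-title library 1. In such bulk libraries fewer cells of a type and less RNA per cell cannot be told apart.

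Among the 9 members, 2 ligand transcripts, IL11 and LIF, were higher in T348I cells and the STAT3 transcript was lower. The other 6, including all 3 receptor subunits, did not pass the test. For all genes tested, 13.7% were called higher and 13.3% lower, so a count of 3 in 9 stands beside 27% of genes called in either direction. A gene was called at a Benjamini-Hochberg adjusted p under 0.05 in edgeR's quasi-likelihood test, and the same 2 higher and 1 lower counts came from DESeq2 and from limma-voom. The median log2 fold change of the members was 0.030, beside −0.030 for all genes tested.

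The promoters of IL11 and IL6 are shown because they held the ligands' matches to an inducible-factor motif in the RefSeq windows (GRCh38.p14), described further below. The capitals mark an AP-1 motif in IL11 and an NF-kB motif in IL6, each read 5′ to 3′ on the strand of its gene. For IL11 the 250 bases before the start site are given (chr19:55370464-55370713, minus strand), and for IL6 30 bases around the motif (chr7:22727117-22727146, plus strand).
IL11: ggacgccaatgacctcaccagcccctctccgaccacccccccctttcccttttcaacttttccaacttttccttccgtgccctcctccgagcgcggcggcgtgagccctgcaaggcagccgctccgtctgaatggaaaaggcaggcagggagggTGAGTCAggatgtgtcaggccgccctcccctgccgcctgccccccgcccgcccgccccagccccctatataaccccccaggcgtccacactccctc
IL6: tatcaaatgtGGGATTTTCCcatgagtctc

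LIF, a cytokine known for keeping mouse embryonic stem cells undifferentiated, lies on chromosome 22 (ENSG00000128342.4, 30240447 to 30246851, minus strand, GRCh38). Its level was 56.6, 38.1 and 50.4 CPM in the WT long-title libraries and 10.5 and 8.64 CPM in the WT short-title libraries. T348I cells held 108, 109.5 and 111 CPM in the long-title set and 32.7 and 21.8 CPM in the short-title set. Within each title set every T348I library was above every WT library, whereas over all 10 libraries the groups overlapped, because both short-title T348I libraries fell below the long-title WT libraries. The group means were 32.8 ± 22.3 CPM (SD, n = 5) in WT and 76.7 ± 45.3 CPM (SD, n = 5) in T348I. The log2 fold change was 1.29 ± 0.13 (SE; 95% confidence interval 1.01 to 1.57; edgeR adjusted p = 4.99e-05). The ratio of means was 2.27 in the long-title set and 2.84 in the short-title set, and each set alone passed the test (adjusted p = 0.00603 and 0.00232). Without the title set term, which leaves the difference between the sets in the error, the call ended (adjusted p = 0.224).

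IL11, which encodes a cytokine first described as a stromal growth factor of blood cell precursors, lies on chromosome 19 (ENSG00000095752.6, 55364389 to 55370463, minus strand). The WT long-title libraries held 20.1, 3.24 and 7.77 CPM of it and the WT short-title libraries 10.2 and 6.80 CPM. In T348I the long-title libraries held 27.6, 21.9 and 21.9 CPM and the short-title libraries 32.7 and 20.8 CPM. The groups did not overlap, which held for 6.94% of all genes tested in the higher direction, but WT long-title library 1 came within 1 CPM of the lowest T348I library. The means were 9.61 ± 6.35 CPM in WT and 25.0 ± 5.09 CPM in T348I (SD, n = 5 each), a log2 fold change of 1.37 ± 0.33 (SE; 95% confidence interval 0.66 to 2.08; edgeR adjusted p = 0.00832). Without WT long-title library 1 the log2 fold change was 1.87, the highest of the fits that left out 1 library. The lowest of those fits gave 1.17. The short-title set alone passed the test at 1.68 ± 0.24 (adjusted p = 0.00245), and the long-title set alone, with all 3 T348I libraries above all 3 WT libraries, gave 1.17 ± 0.48 and did not pass (adjusted p = 0.158).

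IL6, the founding cytokine of the family and a main inducer of the hepatic acute phase response, lies on chromosome 7 (ENSG00000136244.11, 22725884 to 22732002, plus strand). The WT libraries held 162, 77.2 and 81.9 CPM in the long-title set and 11.7 and 9.98 CPM in the short-title set. In T348I the values were 79.6, 81.6 and 78.9 CPM in the long-title and 10.6 and 12.4 CPM in the short-title set. Genotypes overlapped in both sets, and 1 library, WT long-title library 1, held 2.04 times the mean of the other WT long-title libraries. IL6 did not pass the genotype test: the log2 fold change was −0.25 ± 0.19 (SE; 95% confidence interval −0.66 to 0.15; edgeR adjusted p = 0.340), and without that library it was 0.044. The title set separated IL6 far more than the genotype, with 9.88 times as much in the long-title as in the short-title libraries in WT and 6.93 times in T348I.

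CLCF1, whose product signals through gp130 and the LIF receptor with the CNTF receptor, lies on chromosome 11 (ENSG00000175505.10, 67364168 to 67374177, minus strand). Its level varied less than that of the other ligands, from 71.0 to 95.3 CPM in WT and from 76.7 to 101 CPM in T348I. The means of 83.3 ± 10.8 CPM and 92.3 ± 11.03 CPM (SD, n = 5 each) overlapped, and the log2 fold change of 0.14 ± 0.10 did not pass the test (SE; 95% confidence interval −0.073 to 0.35; edgeR adjusted p = 0.314). In the long-title set alone the T348I libraries were all above the WT libraries, at 98.2 to 101 CPM against 71.0 to 91.4 CPM, and in the short-title set the groups overlapped. A share of 3.09% of its exon bases is also annotated to AP003419.1 on the same strand, so reads there cannot be told apart.

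**Figure D1:**
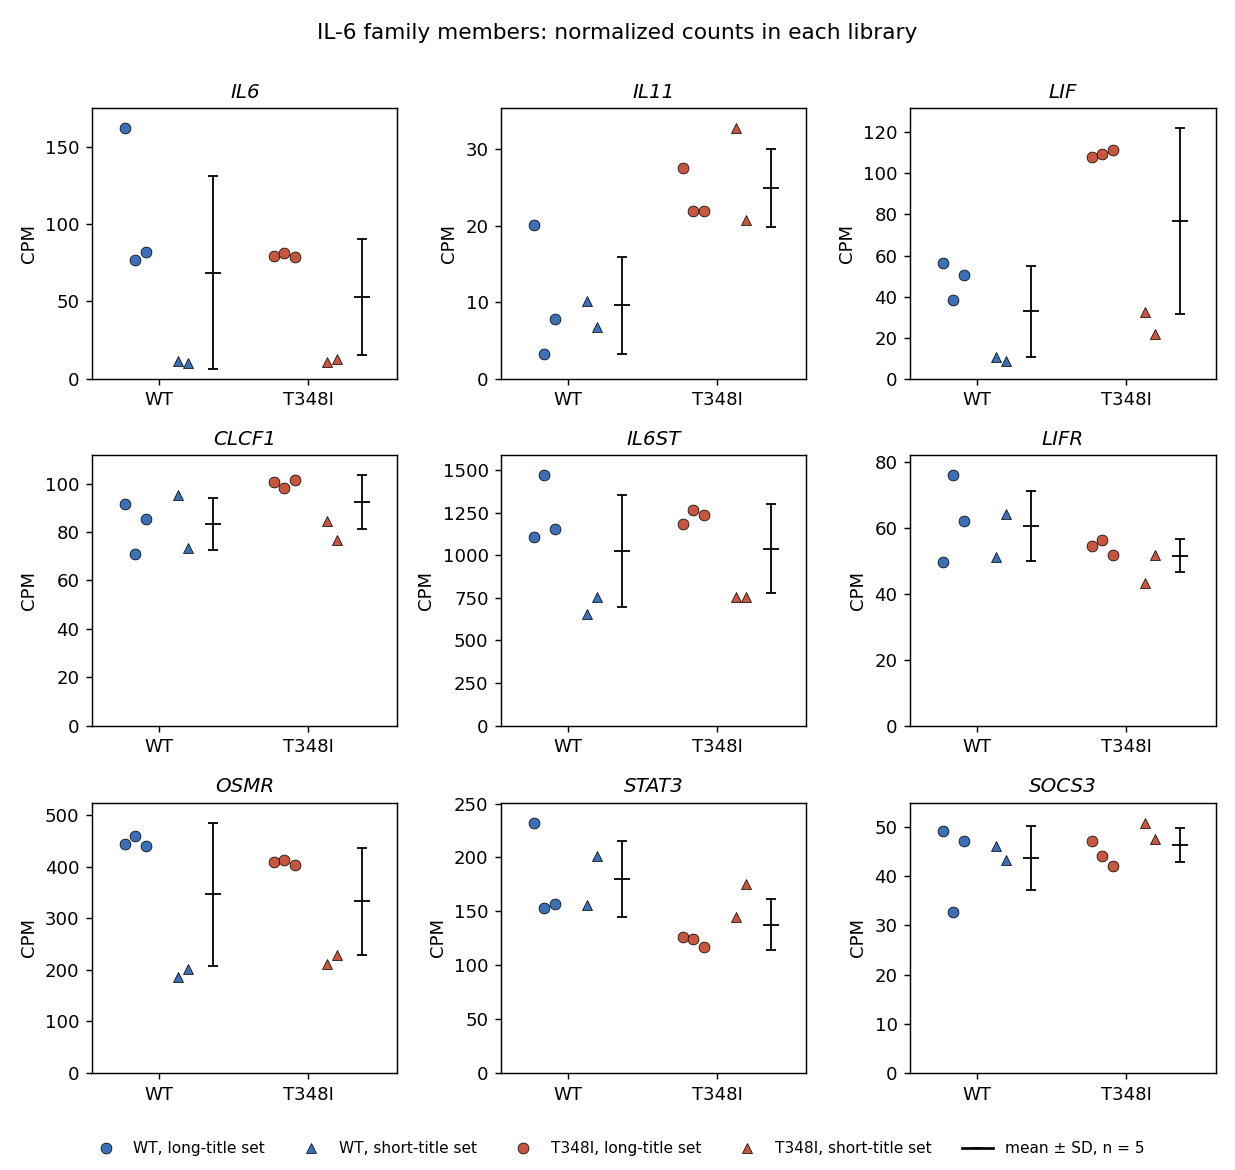
Normalized counts (CPM, linear axes starting at 0) of the 9 members in each library, WT in blue and T348I in red, circles for long-title and triangles for short-title libraries, with the mean ± SD of 5 libraries beside each group. IL11 separates the genotypes in all libraries (at most 20.1 CPM in WT, at least 20.8 CPM in T348I), LIF separates them within each title set, and IL6, IL6ST and OSMR separate the title sets.

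The receptor subunits were not called in either direction. IL6ST, which encodes the shared subunit gp130, was the most abundant member and lies on chromosome 5 (ENSG00000134352.19, 55935095 to 55994993, minus strand). Its level was 1106, 1467 and 1156 CPM in the WT long-title libraries and 654 and 753 CPM in the WT short-title libraries. Those of T348I held 1183, 1262 and 1237 CPM and 757 and 754 CPM. The genotype means were 1027 ± 328 CPM and 1039 ± 260.3 CPM (SD, n = 5 each), and the 95% confidence interval of the log2 fold change of 0.030 ran from −0.17 to 0.23 (edgeR adjusted p = 0.839).

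OSMR, the subunit that pairs with gp130 for oncostatin M, is also on chromosome 5 (ENSG00000145623.12, 38845858 to 38945596, plus strand). It held 445, 459 and 440.0 CPM in the WT long-title libraries against 409, 413 and 403 CPM in the T348I ones, where every T348I library was lower. In the short-title set the order was the opposite, with 186 and 202 CPM in WT and 212 and 228 CPM in T348I. Within sets the OSMR log2 fold change stood at −0.14 ± 0.084 (long titles) and 0.19 ± 0.13 (short titles; SE), and neither passed its test. Over both sets it was −0.0092 ± 0.079 (95% confidence interval −0.18 to 0.16; edgeR adjusted p = 0.944). The difference between the sets had an unadjusted p of 0.0492 and did not pass over all genes (adjusted p = 0.997).

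LIFR, the LIF receptor subunit, lies near OSMR on chromosome 5 (ENSG00000113594.9, 38474963 to 38608354, minus strand). The WT libraries held 49.8, 76.0 and 62.1 CPM in the long-title set and 51.3 and 64.3 CPM in the short-title set. The T348I libraries held 54.7, 56.4 and 51.8 CPM and 43.4 and 51.9 CPM, so the groups overlapped in both sets. The log2 fold change was −0.23 ± 0.11 (SE; 95% confidence interval −0.47 to 0.0012; edgeR adjusted p = 0.129). Without WT long-title library 1, the WT library with the lowest LIFR level, it was −0.32 and passed the test (adjusted p = 0.0162).

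STAT3, the transcription factor downstream of gp130, was the member with a lower transcript level in T348I, by an amount close to the spread between libraries. The gene lies on chromosome 17 (ENSG00000168610.14, 42313324 to 42388568, minus strand). The WT libraries held 232, 153 and 157 CPM in the long-title set and 156 and 201 CPM in the short-title set. In T348I they held 126, 125 and 117 CPM and 145 and 176 CPM. The genotypes were apart in the long-title set and overlapped in the short-title set. Means were 179.8 ± 35.5 CPM in WT and 138 ± 23.5 CPM in T348I (SD, n = 5 each), a log2 fold change of −0.40 ± 0.13 (SE; 95% confidence interval −0.68 to −0.12; edgeR adjusted p = 0.0380). Within sets STAT3 did not pass, at −0.57 ± 0.16 in the long-title set (adjusted p = 0.0604) and −0.14 ± 0.15 in the short-title set (adjusted p = 0.588). The call ended without WT short-title library 2 (adjusted p = 0.0843), without any 1 of the T348I long-title libraries 1, 2 and 3 (0.0897, 0.0905 and 0.103), without T348I short-title library 1 (0.0891), and without the title set term (0.134). Without WT long-title library 1, the highest in STAT3, the log2 fold change was −0.26 and the call remained (adjusted p = 0.0380).

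SOCS3, a feedback inhibitor that STAT3 induces, lies on the same chromosome as STAT3 (ENSG00000184557.4, 78356778 to 78360077, minus strand). Its level was 49.2, 32.7 and 47.1 CPM in the WT long-title libraries and 46.3 and 43.3 CPM in the WT short-title libraries. In T348I it was 47.2, 44.2 and 42.0 CPM and 50.9 and 47.5 CPM. The groups overlapped, and the lowest value was in WT long-title library 2. The log2 fold change was 0.083 ± 0.10 (SE; 95% confidence interval −0.14 to 0.30; edgeR adjusted p = 0.581).

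**Figure D2:**
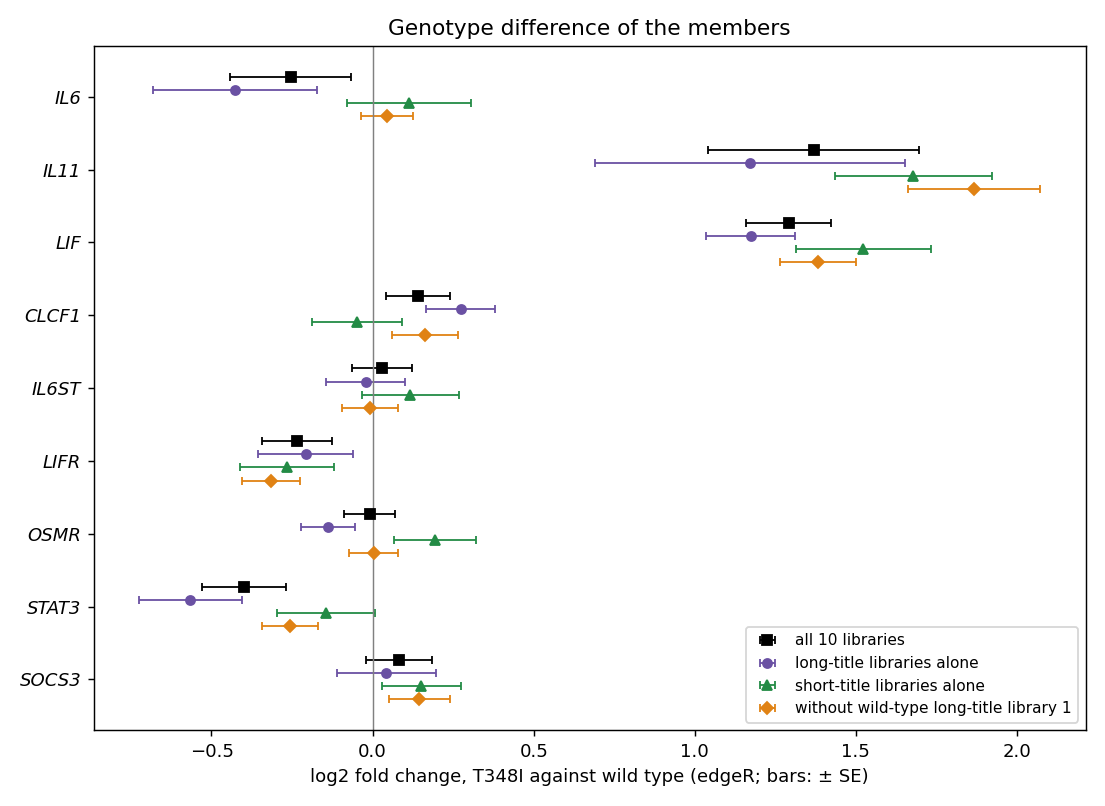
Log2 fold change of T348I against WT (horizontal axis, bars ± SE from edgeR) of each member over all 10 libraries, in each title set alone and without WT long-title library 1. IL11 and LIF lie between 1.17 and 1.87 in every one of these fits, whereas IL6, OSMR, IL6ST and CLCF1 lie on both sides of 0.

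Within single title sets fewer genes were called. In the long-title libraries alone LIF was the only member called higher, beside 5.21% of genes, and 0 members were lower, beside 3.73%. In the short-title libraries alone IL11 and LIF were higher, beside 6.43% of genes, and 0 members were lower, beside 4.12%. Without the title set term IL11 alone was called higher, beside 5.95% of genes, and 0 members were lower, beside 3.62%. With the T348I long-title libraries, which differ so little, summed into 1 library, IL11 and LIF were higher, beside 6.26% of genes, and 0 members were lower, beside 3.92%.

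The genotype by title set interaction was not called for any of the 9 members, with an adjusted p of 0.997 for each in edgeR's quasi-likelihood test. It was called for 0 of all genes tested, of which 459 had an unadjusted p under 0.05. The title sets themselves differed in 4 members, all lower in the short-title libraries, beside 43.1% of all genes tested in either direction. IL6 had the largest such log2 difference of the members, −3.04 ± 0.21 (SE; adjusted p = 4.69e-07), followed by LIF at −2.16 ± 0.14 (adjusted p = 2.81e-07), OSMR at −1.05 ± 0.083 (adjusted p = 1.14e-06) and IL6ST at −0.76 ± 0.10 (adjusted p = 5.98e-05). What the title styles stand for is not given in the labels.

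WT long-title library 1 was set against the mean of the other 2 WT long-title libraries. It held 3.64 times as much IL11, 2.04 times as much IL6, 1.28 times as much LIF and 1.17 times as much CLCF1. STAT3 stood at 1.501 times, SOCS3 at 1.23 times, OSMR at 0.990 times, IL6ST at 0.843 times and LIFR at 0.722 times that mean. In the same library SOCS1 stood at 10.6 times and the acute phase gene SAA1 at 14.1 times the mean of the other 2. All 8 mesenchymal markers were above that mean, at 1.38 to 16.9 times. Of the 4 endothelial markers CDH5 (12.1 times), PECAM1 (2.001 times) and VWF (1.24 times) were above it and KDR (0.846 times) below it. Of the leukocyte markers with at least 50 counts in all, CD14 was above it (5.44 times) and PTPRC (0.471 times) and LYZ (0.206 times) were below it. Some of these ratios rest on a few counts, since 3 counts correspond to 0.177 to 0.295 CPM. KDR, PTPRC and LYZ held 0.314, 0.314 and 0.0784 CPM in WT long-title library 1, against means of 0.371, 0.665 and 0.380 CPM. CDH5 held 3.29 CPM against a mean of 0.272 CPM. The directions of KDR, PTPRC and LYZ are therefore not resolved. The part of these transcripts in the genotype differences was not tested beyond leaving the library out.

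Across the members, levels per exon length (CPM per kilobase of merged exons, mean ± SD over 10 libraries) were highest for IL6ST, which stood at 111 ± 30.1 CPM per kilobase, above the next member in all 10 libraries and with a range that did not meet it. It was followed by OSMR at 47.4 ± 16.2, CLCF1 at 44.4 ± 5.74 and IL6 at 29.3 ± 23.9 CPM per kilobase. In the short-title libraries CLCF1 (means of 42.7 in WT and 40.9 in T348I) was above OSMR (27.1 and 30.6), and OSMR was above CLCF1 in the 6 long-title libraries. STAT3 at 18.0 ± 4.10, SOCS3 at 16.5 ± 1.86 and LIF at 13.8 ± 10.3 came next, and IL11 at 6.48 ± 3.65 and LIFR at 4.73 ± 0.774 CPM per kilobase were last. Each neighbouring pair after IL6ST overlapped in range, so the order from OSMR to LIFR is not resolved pair by pair. The alpha receptors were far below gp130, with IL11RA at 2.07 and IL6R at 0.882 CPM per kilobase, and CNTFR, the alpha receptor used by the CLCF1 product, stood at 0.00724. JAK1, the kinase bound to gp130, stood at 43.0 CPM per kilobase.

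**Figure D3:**
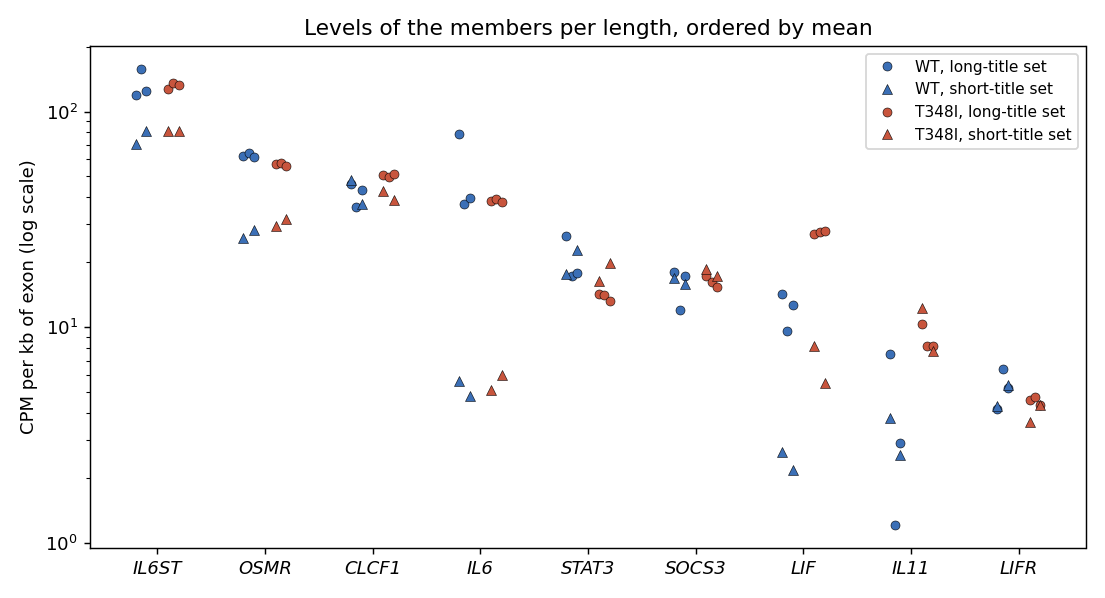
Level of each member per exon length (CPM per kilobase, log axis) in each library, ordered by mean, with colours for genotype and shapes for title set. IL6ST lies above all other members, and IL6 and LIF span the widest ranges, with their short-title libraries lowest.

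Beyond the 9 members, 69 genes of the same pathway were listed by role, of which 47 were tested. In T348I 5 of the 47 were higher and 8 lower, beside 13.7% and 13.3% of all genes tested, and their median log2 fold change was −0.096. Without WT long-title library 2 the counts were 8 and 15, beside 2379 and 2297 of the 14078 genes tested in that fit. The lower count was 4 or 5 when any T348I long-title library or the first T348I short-title library was left out. Those fits called 1108 to 1278 of all genes lower. The higher ones were all among genes that STAT3 is known to induce, and the lower ones included 3 of the other STAT genes.

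The other ligands were hardly detected: IL27 and IL31 were at 0 counts in every library, OSM had at most 4 counts in a library, and CNTF, the only one of 7 that was tested, was not called. Of the other receptors and receptor proteases 5 of 7 were tested, and 0 were higher and 1 lower. All genes tested stood at 13.7% and 13.3%. The lower one was ADAM17, the protease that sheds the IL-6 receptor, at 133 ± 25.7 CPM in WT and 109 ± 17.9 CPM in T348I (log2 fold change −0.28 ± 0.07, edgeR adjusted p = 0.00671). The ADAM17 call ended in 5 of 23 alternatives, among them each title set alone (adjusted p = 0.0570 and 0.251) and no title set term (0.269). IL6R (−0.36 ± 0.17, adjusted p = 0.124) and IL11RA (−0.38 ± 0.16, adjusted p = 0.0859) had the negative sign and did not pass.

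Of the JAK and STAT genes 9 of 10 were tested, with 0 higher and 3 lower, beside 13.7% and 13.3% of all genes tested, and DESeq2 called JAK1 lower as well. STAT2, a factor of type I interferon signalling, held 189.7, 130.1 and 146 CPM in the WT long-title libraries and 166 and 141 CPM in the WT short-title libraries. It held 90.6, 99.5 and 98.9 CPM and 82.0 and 98.2 CPM in T348I. The groups did not overlap, as for 4.15% of all genes tested in the lower direction, and the log2 fold change was −0.72 ± 0.10 (edgeR adjusted p = 0.00032). STAT6, the factor activated by interleukin-4, was at 200.1 ± 32.4 CPM in WT and 149 ± 19.2 CPM in T348I (−0.43 ± 0.08, adjusted p = 0.00185), a call that ended without the title set term (0.0606) and in the short-title libraries alone (0.0590). STAT5A was at 3.47 ± 1.29 CPM and 1.83 ± 1.19 CPM (−1.02 ± 0.29, adjusted p = 0.0214), and its call ended in 6 of 23 alternatives, among them without T348I long-title library 1, 2 or 3 (0.0524, 0.0603 and 0.0557). By title set STAT5A stood at −1.60 (long titles) and −0.42 (short titles) on the log2 scale, the latter not passing (adjusted p = 0.387), with an interaction at an unadjusted p of 0.0449 (adjusted p = 0.997). WT long-title library 1 held 4.70 CPM of STAT5A, 2.19 times the mean of the other 2, and without it the log2 fold change was −0.70 and the call remained (adjusted p = 0.0240). The kinase JAK1 (−0.27 ± 0.10, adjusted p = 0.0559) did not pass in edgeR.

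Among the 15 inhibitors, which include the other SOCS genes, the PIAS genes and tyrosine phosphatases, 0 were higher and 1 lower. These counts stand beside 13.7% and 13.3% of all genes tested. The lower one was the phosphatase gene PTPN6, at 5.39 ± 0.558 CPM in WT and 3.69 ± 1.05 CPM in T348I (−0.58 ± 0.17, edgeR adjusted p = 0.0221). The PTPN6 call ended in 7 of 23 alternatives (adjusted p up to 0.240). Among them were the fits without WT short-title library 2 (adjusted p = 0.0599), T348I long-title library 1 (0.0582) or T348I short-title library 1 (0.0657). SOCS1 held 10.3 CPM in WT long-title library 1 and 0.688 to 2.59 CPM in the other 9 libraries, and did not pass (−0.71 ± 0.64, adjusted p = 0.437).

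Among the 15 genes listed as induced by STAT3, all tested, 5 were higher and 1 lower in T348I, beside 13.7% and 13.3% of all genes tested, with a median log2 fold change of −0.075. MYC, a growth-promoting transcription factor with many inducers besides STAT3, held 20.3, 28.9 and 28.3 CPM in the WT long-title libraries and 27.2 and 25.3 CPM in the WT short-title libraries. The T348I libraries held 49.1, 46.8 and 48.4 CPM and 62.1 and 44.8 CPM, all above WT. Such separation in the higher direction, given below for CCND1 and BCL2L1 as well, held for 6.94% of all genes tested. The log2 fold change of MYC was 0.95 ± 0.11 (edgeR adjusted p = 0.000111). CCND1, which encodes cyclin D1, was also apart in the groups, at 660.1 CPM in WT long-title library 1, 1070.4 to 1279 CPM in the other WT libraries and 1987 to 2736 CPM in T348I (1.02 ± 0.16, adjusted p = 0.000579, and 0.89 without that library). The survival genes BCL2L1 and MCL1 were higher, BCL2L1 from 124 ± 15.3 to 182 ± 7.68 CPM without overlap (0.56 ± 0.08, adjusted p = 0.0004) and MCL1 from 344 ± 86.2 to 483 ± 127 CPM (0.48 ± 0.08, adjusted p = 0.00103). The kinase gene PIM1 was higher by 0.29 ± 0.09 (adjusted p = 0.0344), a call that ended in 13 of 23 alternatives (adjusted p up to 0.461). Among them were the fits without WT long-title library 1, without WT short-title library 2 and without any 1 of the 5 T348I libraries (0.0504 to 0.0931). The repressor gene BCL6 was lower, at 44.96 ± 15.8 CPM in WT and 29.1 ± 7.84 CPM in T348I (−0.60 ± 0.09, adjusted p = 0.000499). The calls of MCL1 and BCL6 each ended in 2 of 23 alternatives, when the model had no title set term (adjusted p = 0.178 and 0.157) and in the short-title libraries alone (0.0540 and 0.0915). CEBPB (−0.20), CEBPD (−0.33), JUNB (−0.17) and FOS (−0.07), which respond early to IL-6, did not pass.

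**Figure D4:**
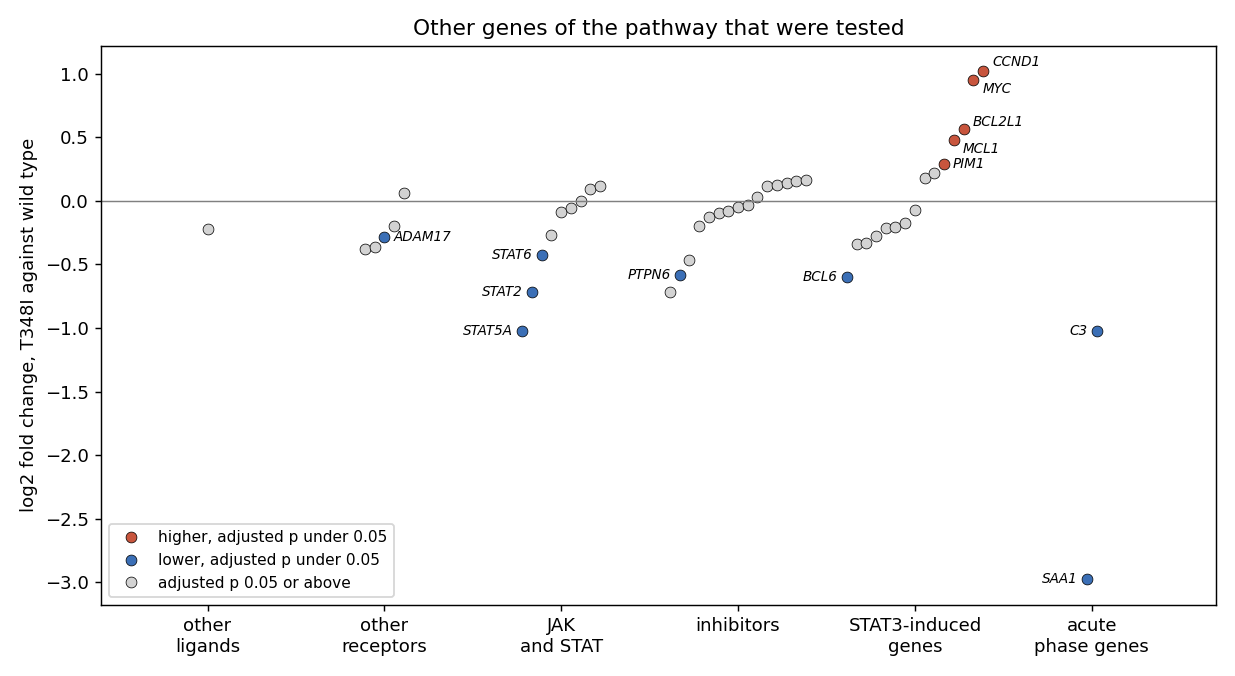
Log2 fold change of T348I against WT (vertical axis, linear) of the 47 tested pathway genes outside the 9 members, by list, with called genes coloured and named. The 5 higher genes all lie among the STAT3-induced genes, and SAA1 and C3 are the lowest with STAT5A.

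Of the 15 acute phase genes only SAA1 and C3 were abundant enough to be tested. Both were lower in T348I in edgeR, beside 13.3% of all genes tested. DESeq2 did not call C3 (adjusted p = 0.0586) and gave SAA1 no adjusted p. SAA1, a serum amyloid gene, held 21.7 CPM in WT long-title library 1, 1.47 and 1.61 CPM in the other WT long-title libraries, and 0 in both WT short-title libraries. The T348I libraries held 0.878, 0.819 and 1.37 CPM and 0.0739 and 0 CPM. C3, the central complement component, held 1999, 455 and 548 CPM and 264 and 222 CPM in WT, against 359.5, 391 and 398 CPM and 167 and 185 CPM in T348I. WT long-title library 1 was the highest in both genes by far, while within each title set the other WT libraries of C3 were also above T348I. The log2 fold change was −2.97 ± 0.86 for SAA1 (edgeR adjusted p = 0.0221) and −1.02 ± 0.34 for C3 (adjusted p = 0.0390). Without that library it was −0.55 for SAA1, which did not pass (adjusted p = 0.318), and −0.42 for C3, which did (adjusted p = 0.00129). Both calls also ended when any 1 T348I long-title library, or T348I short-title library 1, was left out, with an adjusted p of 0.0517 to 0.0760 for SAA1 and 0.0681 to 0.100 for C3, and that of C3 without WT short-title library 1 (0.0674). In all, the SAA1 call ended in 10 of 20 alternatives and the C3 call in 11 of 23.

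**Figure D5:**
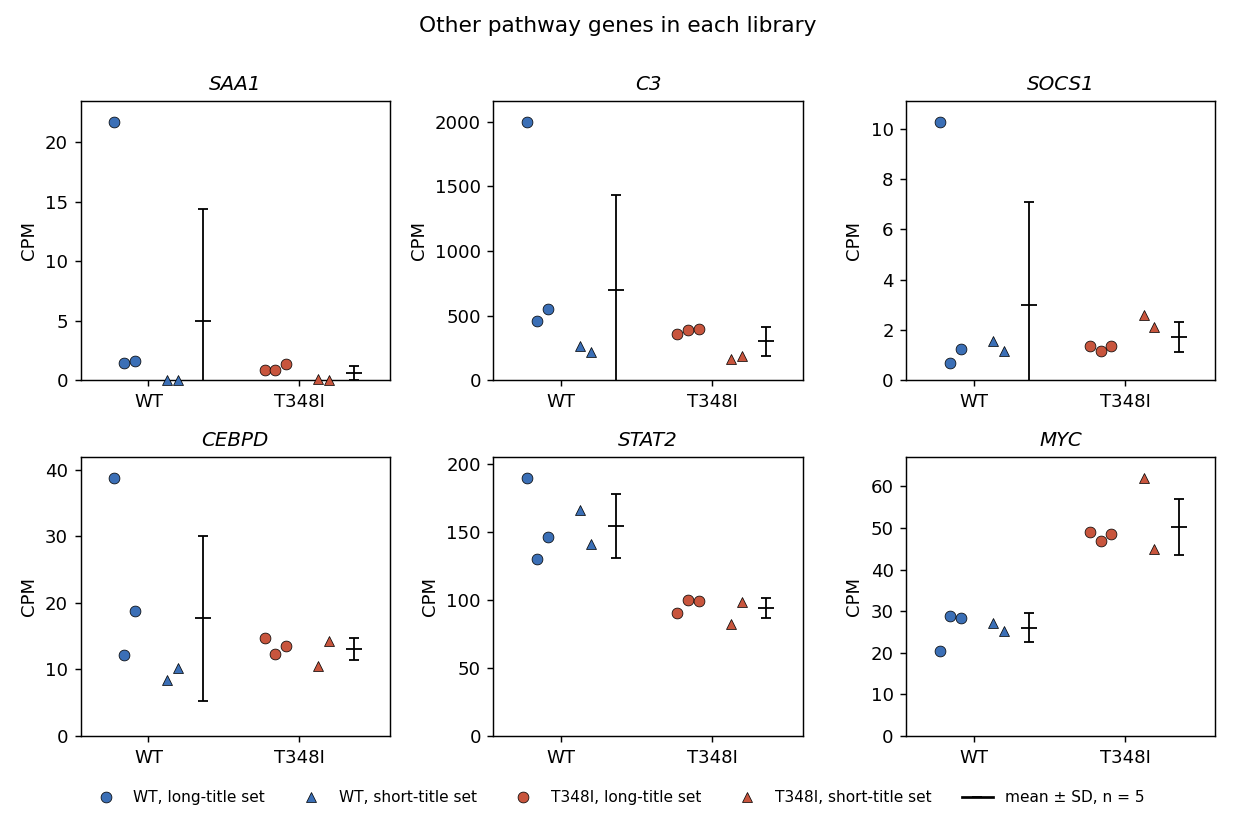
Normalized counts (CPM, linear axes starting at 0) of 6 pathway genes in each library, with the mean ± SD of 5 libraries per genotype, where bars that would reach below 0 end at the axis. WT long-title library 1 is the highest library for SAA1 (21.7 CPM), C3 (1999 CPM), SOCS1 (10.3 CPM) and CEBPD, whereas STAT2 and MYC separate the genotypes in all libraries.

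Promoter windows of 300 bases, from 250 bases before to 50 bases after a start site, were found in the RefSeq table for 7 of the 9 members, in 10 windows, and LIF and CLCF1 had none there. The STAT motif TTCNNNGAA, searched on both strands like the others, was present in 2 member windows, both of LIFR, and in 7.66% of the 35116 windows of the table. With 1 free base fewer (TTCNNGAA) it was present in 1 window each of SOCS3 and STAT3 and in none of LIFR, beside 7.74% of all windows. The AP-1 motif TGANTCA was present in IL11, at position −96 from the start as printed above, and in OSMR at position 4, beside 7.71% of all windows. The NF-kB motif, printed above as it matched, was present in IL6 at position −73, beside 1.91% of all windows. The TEAD motif GGAATG was present in 3 windows, 1 of LIFR and 2 of SOCS3, beside 14.0% of all windows, and the CREB motif TGACGTCA in 0 member windows, beside 1.85%. These matches describe letters in a window and do not show that a factor binds.

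The genes whose levels followed a called member most closely over the 10 libraries were sought among 11054 protein-coding genes, as Pearson correlations of log2 CPM centred within each title set. For LIF they were SEMA7A (r = 0.989), CTGF (r = 0.987) and GADD45A (r = 0.986). For IL11 they were TMEM18 (r = 0.979), INSYN2B (r = 0.971) and PPM1F (r = 0.970). For STAT3 they were TRAPPC9 (r = 0.987), CA12 (r = 0.981) and WLS (r = 0.9798). Between the members, LIF and IL11 had r = 0.899, and IL11 and LIFR had r = −0.911. The libraries share genotype as well as depth and preparation, so these values describe likeness over 10 points and carry no test.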

How the data were processed

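Poly(A) RNA libraries were made with a stranded kit, per the labels' protocols. The submitters' processing notes name CASAVA 1.8.2, Trimmomatic 0.35, STAR 2.5.1b and the build GRCh38, and the annotation release is not given in the sources used here. The authors deposited, for each library, whole-number read counts per gene not normalized, in 3 versions: unstranded, same-strand and opposite-strand. The last was used, since 92.2% to 94.5% of strand-assigned reads lay there. Unassigned, multimapping and unmapped reads (20.7% to 30.0% of reads) stayed out of library sizes and tests. Of the 58219 identifiers listed, 45 duplicates with 5 counts were left out, and 57836 of the 58174 kept matched GENCODE 29 symbols.

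Counts were filtered with filterByExpr (minimum count 10, minimum total 15), scaled by TMM and tested with edgeR 4.0.16 (R 4.3.3) by the quasi-likelihood F test, with terms for genotype and title set over all 10 libraries, with Benjamini-Hochberg adjustment over 13743 genes and a threshold of 0.05. Standard errors were obtained from each log2 fold change and its F statistic. CPM values are counts after TMM scaling to equal library size, and 3 counts correspond to 0.177 to 0.295 CPM. The test was run on simulated data first. Alternatives were limma 3.58.1 voom, DESeq2 1.42.0, other scalings, filters and sets of libraries, and the replicate number as a block. Same-numbered libraries of the genotypes deviated together with a correlation of −0.025, 0.16 and 0.075 in the long-title set and 0.22 in the short-title set, so the numbers were not taken to pair them. The test of the title set term was added after the data were examined.

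The members and gene lists were chosen with earlier results of these data known. All members, the called genes of the pathway lists, defining genes that were not expressed and, for each called member, the 3 protein-coding genes (mean log2 CPM of at least 1) most correlated with it were named. Further uncalled pathway genes were named after their values were seen. Promoter sequences are from RefSeq (GRCh38.p14). Some listed genes are not reported here.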

Additional observations from a re-analysis of the deposited data

Results flagged for a closer look

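Among 22 member and called pathway genes, 44 groups of 5 libraries were screened for a library whose gap to the nearest other passed Dixon's 95% critical value for 5 samples, which chance passes in about 1 of 20 groups. The screen marked 4 groups and none of the 9 members. Each group mixes the title sets, so the rate of 1 in 20 need not hold. A gap between the sets can also hide a library that is far from its own set. IL6 in WT long-title library 1, at 162 CPM against 77.2 and 81.9 CPM in its set, was not marked. The screen therefore does not show that the members hold no such library. SAA1 in WT long-title library 1 stood at 21.7 CPM, with the next WT library at 1.61 CPM. C3 in the same library stood at 1999 CPM, with the next WT library at 548 CPM. MYC in T348I short-title library 1 stood at 62.1 CPM, with the next T348I library at 49.1 CPM. CCND1 in that library stood at 2736 CPM, with the next T348I library at 2158 CPM.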

How the results depend on the processing

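IL11 and LIF kept their positive sign in all 23 alternatives, each losing its call in 1: LIF without the title set term and IL11 in the long-title libraries alone, each of which left 1 member called higher. STAT3 kept its negative sign in all 23, but 0 members were called lower without the title set term, in the long-title or short-title libraries alone, with the T348I long-title libraries summed (STAT3 adjusted p = 0.263) and without both WT long-title libraries 1 and 2 (0.0703). Leaving out 1 library gave 2 to 2 members higher and 0 to 2 lower, beside 1342 to 2379 and 1108 to 2297 of all genes. With the replicate block 2 members were called higher and 1 lower, and 1905 of all genes higher and 1836 lower, and it changed no call of a member.

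For the other pathway genes the higher count was 3 without the title set term and 3 in the short-title libraries alone, and 4 to 8 with 1 library left out. The lower count was 1 without the title set term, 5 in the long-title libraries, 2 in the short-title libraries, 3 with the T348I libraries summed, and 4 to 15 with 1 library left out. For all genes the higher and lower counts were 818 and 497 without the title set term, 698 and 499 in the long-title libraries, 935 and 599 in the short-title libraries, and 899 and 563 with the T348I libraries summed. Leaving out 1 library gave 1342 to 2379 higher and 1108 to 2297 lower, with the lowest counts without T348I short-title library 1 and 1204 lower without T348I long-title library 1. The highest counts came without WT long-title library 2, above the 1884 higher and 1825 lower with all libraries. The cause of these changes was not tested.

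Signs turned only for members that did not pass. IL6 was 0.11 in the short-title libraries alone, 0.034 without both WT long-title libraries 1 and 2, and −0.36 to 0.044 with 1 library left out. CLCF1 was −0.047 in the short-title libraries, and IL6ST was −0.022 in the long-title libraries and −0.012 to 0.12 with 1 library left out. OSMR was 0.017 without a low-count filter, 0.19 in the short-title libraries, 0.053 with the T348I libraries summed, 0.060 without both WT long-title libraries 1 and 2, and −0.057 to 0.021 with 1 library left out. Lengths from the longest transcript moved STAT3 to 31.4 and LIFR to 5.57 CPM per kilobase.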
